A study of Mus musculus with 4 samples.

Results

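The genes described here are those of the oxygen carrier of the first red blood cells and of a few regulators that those cells need. They are the embryonic globins Hbb-bh1, Hbb-y and Hba-x, the adult-type globins Hba-a1 and Hbb-b1, the transcription factors Gata1 and Klf1, the erythropoietin receptor Epor and the heme enzyme Alas2. Every non-control probe that the scanner files name as 1 of these 9 genes was taken, which gave 14 of the 41174 probes of the array. Of these, 12 probes of 7 genes were bright enough to test, and the Gata1 and Klf1 probes were not.

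RNA came from the posterior part of mouse embryos with 5 somites by the sample labels (5 or 6 in the series text), cut at the last somite boundary. Each RNA was a pool of 10 embryos of 1 genotype. The mutants were heterozygous for a Cdx2 loss (Cdx2+/-) and lacked Cdx4 (Cdx4-/-), and the other embryos were wildtype. No strain is given. Both RNAs were hybridised together, in Cy3 and Cy5, to each of 4 arrays, which the labels call replicate 1, replicate 1 dye swap, replicate 2 and replicate 2 dye swap, here arrays 1 to 4. The labels do not state whether the 2 replicates came from separate pools, and p-values then cover only the spread of the 4 hybridisations, which may be technical.

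The first red cells of the mouse, called primitive erythroid cells, arise in the blood islands of the yolk sac and enter the circulation when the heart starts to beat. They make hemoglobin from embryonic globin chains, whereas red cells of the fetal liver and the adult use the adult chains. The genes of each globin cluster lie along the chromosome in about the order in which they are used in development. GATA1 and KLF1 are DNA-binding activators of globin genes, EPOR receives the erythropoietin signal, and ALAS2 makes the first step of heme synthesis in red cells. Cdx genes encode homeobox factors of the posterior body that act on Hox genes and are also known to act on early blood formation.

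Globin promoters carry short motifs that red cell activators and the general machinery bind. The motifs searched on both strands were GATAA (bound by GATA factors), CACCC (bound by KLF1 and its relatives), CCAAT and TATAAA. Among the 9 genes, 7 had a promoter under their own symbol in the RefSeq table (GRCm38.p6), and Hbb-bh1 and Hbb-b1 did not. The accession on the Hbb-b1 probes is now named Hbb-bt in RefSeq, so the Hbb-bt promoter stands in for it. The 250 bases before the start of 2 embryonic and 2 adult-type globins are shown to set the 2 kinds of globin side by side, with the motifs in capitals.
Hbb-y, chr7:103853208-103853457, minus strand: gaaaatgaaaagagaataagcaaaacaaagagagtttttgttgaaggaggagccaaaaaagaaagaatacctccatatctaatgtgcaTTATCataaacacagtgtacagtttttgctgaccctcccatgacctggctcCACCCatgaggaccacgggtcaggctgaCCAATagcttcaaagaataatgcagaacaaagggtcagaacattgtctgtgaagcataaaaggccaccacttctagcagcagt
Hba-x, chr11:32276350-32276599, plus strand: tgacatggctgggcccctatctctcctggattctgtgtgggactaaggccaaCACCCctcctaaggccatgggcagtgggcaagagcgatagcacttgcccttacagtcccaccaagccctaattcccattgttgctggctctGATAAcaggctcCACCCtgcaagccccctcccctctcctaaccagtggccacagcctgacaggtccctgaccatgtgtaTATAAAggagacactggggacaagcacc
Hba-a1, chr11:32283422-32283671, plus strand: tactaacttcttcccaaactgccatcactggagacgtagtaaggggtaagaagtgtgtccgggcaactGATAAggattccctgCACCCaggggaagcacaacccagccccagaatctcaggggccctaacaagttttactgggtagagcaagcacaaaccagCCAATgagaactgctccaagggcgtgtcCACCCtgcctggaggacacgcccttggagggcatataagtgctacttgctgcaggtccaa
Hbb-bt, chr7:103813924-103814173, minus strand: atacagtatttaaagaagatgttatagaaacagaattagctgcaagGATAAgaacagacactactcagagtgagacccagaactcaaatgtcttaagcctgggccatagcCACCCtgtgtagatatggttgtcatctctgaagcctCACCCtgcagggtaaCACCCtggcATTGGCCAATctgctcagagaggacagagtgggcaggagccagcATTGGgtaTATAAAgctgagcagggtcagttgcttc

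All 4 windows held a single GATAA, and each held CACCC, with 1 match in Hbb-y, 2 in Hba-x, 2 in Hba-a1 and 3 in Hbb-bt. CCAAT had 1 match in Hbb-y, 1 in Hba-a1 and 3 in Hbb-bt, of which 2 touch each other on opposite strands, and none in Hba-x. TATAAA stood 28 to 23 bases before the start in both Hba-x and Hbb-bt and was not among the letters of the other 2 windows. Of all 32851 RefSeq promoter windows of this length, 22.6% held GATAA, 52.0% CACCC, 33.8% CCAAT and 12.4% TATAAA. None of the 4 motifs set the embryonic pair apart from the adult-type pair in these windows. A match in letters is a description and not a site of binding.

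The direction of the comparison had to be set before any globin value could be read. Cdx4, tested through 1 probe on chromosome X (mm8), had log2 ratios of Cy5 over Cy3 of -2.59 on array 1, -2.11 on array 2, 2.82 on array 3 and 2.42 on array 4. The labels put the mutant in Cy5 on arrays 1 and 3 and in Cy3 on arrays 2 and 4. Cdx4 was therefore low in the labelled mutant on arrays 1 and 4, and low in the labelled wildtype on arrays 2 and 3. Every ratio below was turned so that the Cdx4 ratio is negative on each array, and is given as the log2 ratio of the RNA low in Cdx4 over the RNA high in Cdx4. Read with the labels of arrays 1 and 4, the mutant is over the wildtype. Read with those of arrays 2 and 3 it is the reverse, and every "higher" and "lower" below would change places. Cdx2 was lower in the Cdx4-low RNA by the same turning, with ratios of -0.77, -0.50, -0.45 and -0.45 on arrays 1 to 4. Whether either probe reads a removed part of its gene is not stated in the labels.

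Over 21801 tested probes, turned ratios correlated at 0.82 between arrays 1 and 2, at 0.87 between arrays 3 and 4, and at 0.38 to 0.44 between the other pairs. With the signs of the labels, the correlations of 4 of the 6 pairs were negative, down to -0.87. These are across probes, which are not independent replicates. The Cdx4-low RNA was in Cy5 on arrays 1 and 2 and in Cy3 on arrays 3 and 4, so a bias of the dye cannot be told apart from a difference between those pairs. All arrays lay on 1 slide with 1 scan time, so neither could be tested as a batch. Between 50.6% and 64.9% of spots per channel were well above background.

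Standard errors and adjusted p-values come from limma on the averages of arrays 1 with 2 and 3 with 4, the pairs of the labelled replicate numbers, adjusted by Benjamini-Hochberg over all 21801 tested probes. A probe is said to have changed only where its adjusted p was under 0.05 there and also with array 1 averaged with 3 and 2 with 4, here called the exchange pairing. By this rule 2.35% of all tested probes were higher and 3.38% were lower in the Cdx4-low RNA. In the exchange pairing alone, which leaves the spread between labelled replicates out of the error, 19.4% were higher and 18.1% lower, so a pass in it alone says little. Every probe that passed in the labelled pairing also passed in the exchange pairing, so the second condition removed none.

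The embryonic globins were higher in the Cdx4-low RNA and the adult-type beta globin was lower. All 4 probes of the 3 embryonic globins rose, by 1.65- to 2.54-fold. All 4 probes of Hbb-b1 fell, by 1.46- to 1.77-fold, and neither probe of Hba-a1 passed. The 4 higher probes were of 3 genes and the 4 lower ones of Hbb-b1 alone. Beside 2.35% of all tested probes higher and 3.38% lower, the members called were thus 4 of 12 tested probes in each direction. These are counts of probes that share genes and, for 2 pairs of probes, bases, and the genes were chosen with results of these data known. In bulk tissue fewer cells of a type and less RNA per cell cannot be told apart.

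**Figure D1:**
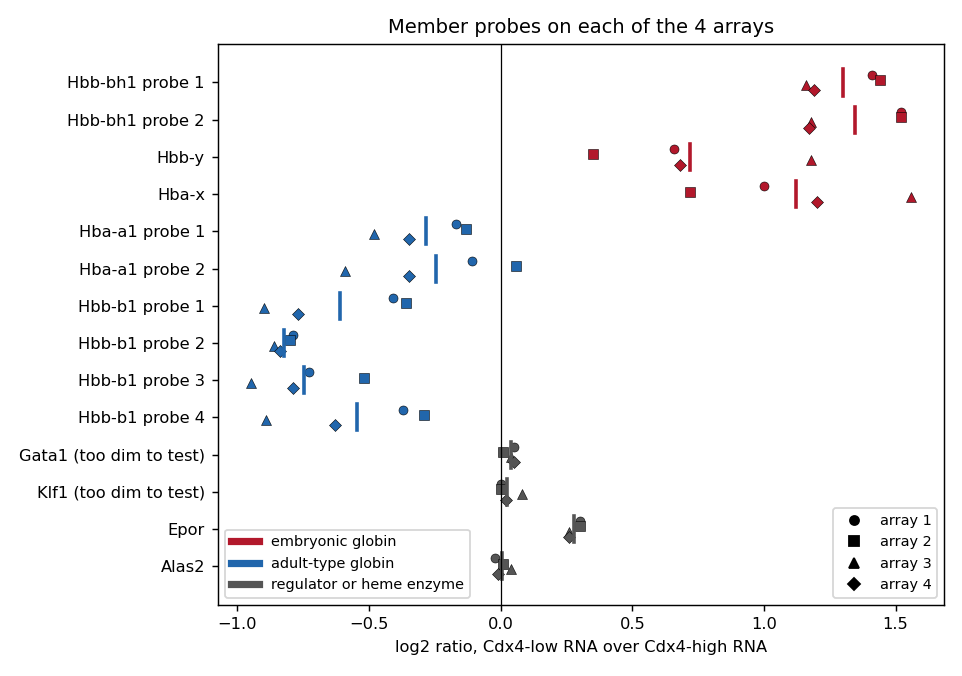
Turned log2 ratios (Cdx4-low RNA over Cdx4-high RNA) of the 14 member probes, with 1 point per array, the marker giving the array, and a vertical bar at the mean of the 4 arrays. The embryonic globin probes lie at or above 0.35 on every array, all Hbb-b1 points lie at or below -0.29, and Gata1, Klf1 and Alas2 lie within 0.08 of 0.

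Hbb-bh1 encodes a beta-like chain of embryonic hemoglobin. Its first probe (chr7:103715614-103715673, mm8, minus strand) had turned ratios of 1.41, 1.44, 1.16 and 1.19 on arrays 1 to 4. Its second probe (chr7:103715634-103715693) had 1.52, 1.52, 1.18 and 1.17. The ratios were high on all 4 arrays and somewhat higher on arrays 1 and 2. In limma the first probe rose by log2 1.30 ± 0.10 (SE) and the second by 1.35 ± 0.10, which is 2.54-fold, each with an adjusted p of 2.1e-07. The probes overlap by 40 of their 60 bases and are 1 measurement of the gene rather than 2. The level of the second probe, as log2 intensity, was 12.01 ± 0.11 (SD, n = 4 arrays) in the Cdx4-low RNA and 10.66 ± 0.10 in the Cdx4-high RNA, and the 2 ranges did not overlap.

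Hbb-y encodes the epsilon-type chain of the same cluster (1 probe, chr7:103726719-103726778). Its turned ratios were 0.66, 0.35, 1.18 and 0.68 on arrays 1 to 4. All 4 were positive, and array 2 gave the lowest and array 3 the highest value. The gene rose by log2 0.72 ± 0.11, which is 1.65-fold (adjusted p = 0.000368 in limma). Its size depended on how the local background was handled. A few spots lay in bright local background, and with them the estimated background mean of Cy3 on array 2 was -328 intensity units, against 19.3 without them. When such spots, 2 to 19 per channel and array, were set aside while the estimate was made (an alternative chosen after seeing the data), the ratios of Hbb-y were 0.94, 1.23, 1.32 and 1.00, with a mean of 1.12. With the signals that the scanner software had processed, the mean was 2.11. The level of Hbb-y was 8.40 ± 0.06 in the Cdx4-low RNA and 7.68 ± 0.30 in the Cdx4-high RNA. Without array 1 the call ended, at log2 0.64 (adjusted p = 0.0859 in limma).

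Hba-x encodes the zeta-type alpha-like chain, which pairs with the embryonic beta-like chains (1 probe, chr11:32177668-32177727, plus strand). Its turned ratios were 1.00, 0.72, 1.56 and 1.20. All 4 arrays were high, and the lowest was again array 2 and the highest array 3. The gene rose by log2 1.12 ± 0.11, which is 2.17-fold (adjusted p = 6.13e-06 in limma). With the spots in bright local background set aside the ratios were 1.22, 1.34, 1.64 and 1.44, with a mean of 1.41. With the scanner's processed signals the mean was 1.78. Array 1, and not array 2, was the lowest in both settings, and array 3 stayed the highest. The level of Hba-x was 9.39 ± 0.15 in the Cdx4-low RNA and 8.27 ± 0.26 in the Cdx4-high RNA, with no overlap over the 4 arrays.

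**Figure D2:**
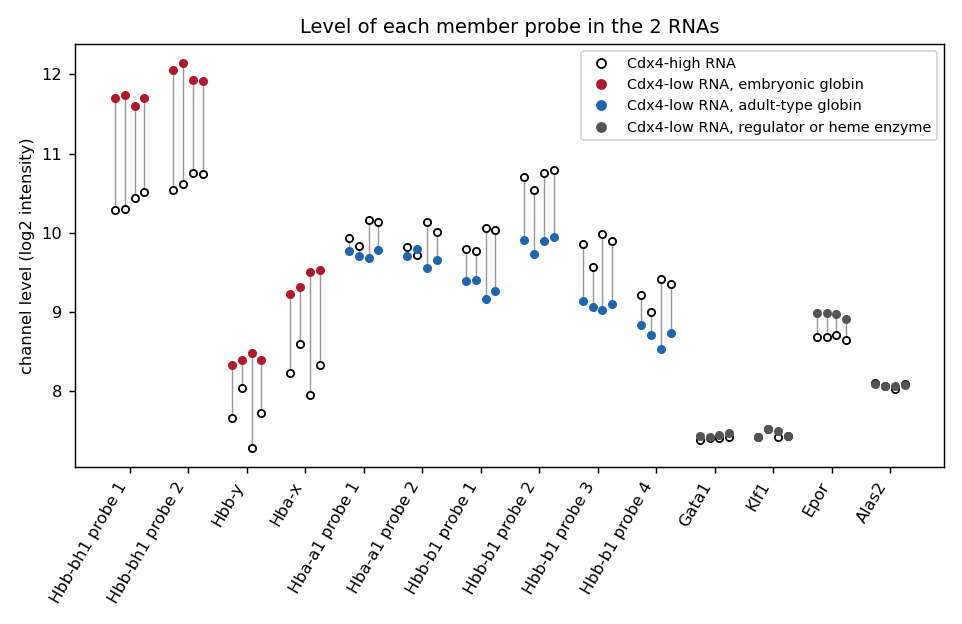
Levels of the 14 member probes in both RNAs, as normalised log2 intensity. Each grey line joins the 2 channels of 1 array (arrays 1 to 4 from left to right), open circles are the Cdx4-high RNA and filled circles the Cdx4-low RNA. The lines of the embryonic globins point upward on every array and those of Hbb-b1 downward. Levels of different probes are not comparable with each other.

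Hbb-b1 encodes the adult beta chain, and its 4 probes all fell. Probe 2 (chr7:103687307-103687366, mm8, minus strand) had turned ratios of -0.79, -0.80, -0.86 and -0.84 and the smallest spread of the 4. Probe 3 (chr7:103687338-103687397), which overlaps it by 29 bases, had -0.73, -0.52, -0.95 and -0.79. Probe 1 (chr7:103686419-103686478) had -0.41, -0.36, -0.90 and -0.77, and probe 4 (chr7:103687624-103687683) had -0.37, -0.29, -0.89 and -0.63. Every probe was negative on every array, and arrays 3 and 4 were the lower pair for each of them. With the spots in bright local background set aside, probe 2 had -0.83, -1.09, -0.87 and -0.93, lowest on array 2. With median centring in place of loess all 4 probes were positive on array 2, at 0.49 to 0.77. Probes 1 to 4 fell by log2 0.61, 0.82, 0.75 and 0.54, with standard errors of 0.09 to 0.11 and adjusted p-values in limma of 0.00177, 2.5e-05, 0.000118 and 0.00419. The level of probe 2 was 9.87 ± 0.10 in the Cdx4-low RNA and 10.70 ± 0.11 in the Cdx4-high RNA. Without array 1 the calls of probes 1 and 4 ended (adjusted p = 0.0811 and 0.112 in limma), and those of the other 2 did not. With the scanner's processed signals probe 4 was at -0.85.

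Hba-a1 encodes the adult alpha chain, which embryonic red cells also use. Its first probe spans 182 bases of the chromosome (chr11:32183775-32183956, mm8, plus strand) and had turned ratios of -0.17, -0.13, -0.48 and -0.35. The second (chr11:32196744-32196803) had -0.11, 0.06, -0.59 and -0.35. Arrays 3 and 4 were again below arrays 1 and 2, and 1 of the 8 values was positive. The means were log2 -0.28 ± 0.10 (adjusted p = 0.117) and -0.25 ± 0.11 (adjusted p = 0.235) in limma. In the exchange pairing both passed, with adjusted p-values of 5.91e-07 and 1.8e-05. Without background correction the first probe passed as lower in the labelled pairing too, at -0.34 (adjusted p = 0.0455 in limma). Adult alpha and beta genes exist as near-identical copies, and the probes may read more than 1 copy, so which copy a value belongs to is uncertain.

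Along both clusters the sign of the mean ratio changed between the embryonic and the adult end, save with median centring in place of loess, where Hba-a1 was at 0.02 and 0.05. In the beta cluster, read in the direction of transcription, the Hbb-bh1 probes lay 11.1 kb from the Hbb-y probe and the Hbb-b1 probes 39.1 to 40.3 kb from it. In the alpha cluster the Hba-a1 probes lay 6.1 kb and 19.1 kb from the Hba-x probe. The negative means of that cluster were those of Hba-a1 alone, neither probe of which passed by the rule for a change. The first gene of the beta cluster did not have the largest ratio: Hbb-bh1 was above Hbb-y on arrays 1, 2 and 4, and on array 3 the values of the 2 genes were within 0.02 of each other. With the scanner's processed signals that order turned, with Hbb-y at 2.11 and Hbb-bh1 at 1.42 and 1.43.

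**Figure D3:**
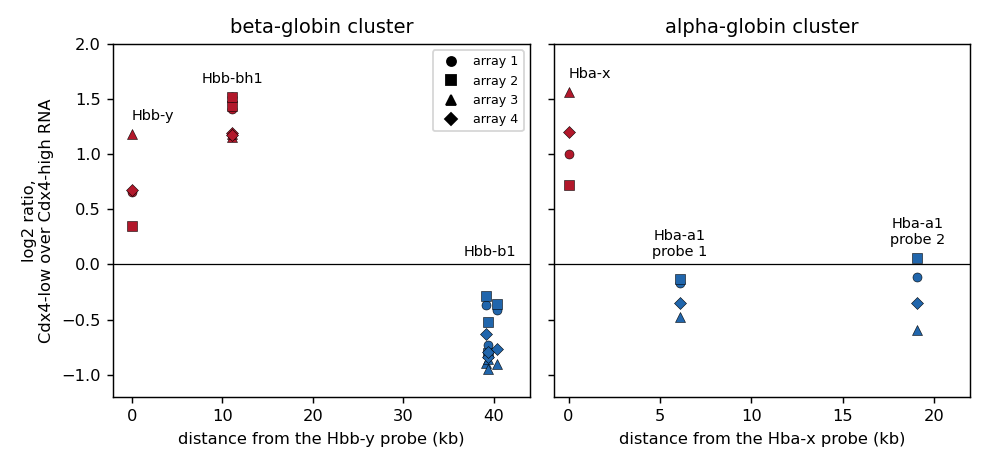
Turned log2 ratios of the globin probes against their distance in kb along the beta cluster (from the Hbb-y probe) and the alpha cluster (from the Hba-x probe), in the direction of transcription. Red points are embryonic and blue points adult-type globins, and the marker gives the array. Positive ratios lie at the embryonic end of each cluster and, save 1 point of Hba-a1 at 0.06, negative ratios at the adult end. Neither probe of Hba-a1 passed.

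The shift between array pairs differed among the globins. Hbb-bh1, Hba-a1 and Hbb-b1 were lower on arrays 3 and 4 than on arrays 1 and 2, save that Hbb-b1 probe 2 moved by only 0.05, whereas Hbb-y and Hba-x were higher there. The order of single arrays depended on the processing, among others for Hbb-y, Hba-x and Hbb-b1 probe 2. With the spots in bright local background set aside, Hbb-y was at 0.94, 1.23, 1.32 and 1.00, lower on array 4 than on array 2. Without background correction and with the scanner's processed signals, Hbb-y was also lower on array 4 than on array 2. Hbb-b1 probe 2 was lowest on array 2 in each of these settings. Hba-x was lowest on array 1 in each of them and still higher on arrays 3 and 4 than on arrays 1 and 2. With median centring Hba-x was highest on array 2, at 1.60. The mean over all embryonic globin probes was steadier, at 1.15, 1.01, 1.27 and 1.06 on arrays 1 to 4. That of the adult-type probes was -0.43, -0.34, -0.78 and -0.62. The embryonic mean exceeded the adult-type mean by 1.58, 1.35, 2.05 and 1.68, on average by 1.66 ± 0.29 (SD, n = 4 arrays). This is a description with no test, since the genes were chosen with results known.

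The regulators and the heme enzyme had a small mean ratio whose size depended on the signals used. The mean of the Gata1, Klf1, Epor and Alas2 probes was 0.08, 0.08, 0.10 and 0.08 on the 4 arrays. The embryonic globins were above it by 1.04 ± 0.10 and the adult-type globins below it by 0.63 ± 0.21 (SD, n = 4 arrays), as a mean difference of -0.63. Taken as 1 group, the globins differed from the regulators by 0.12, 0.12, -0.06 and -0.03, on average 0.04 ± 0.10, so the opposite directions of the 2 kinds of globin cancelled. From the scanner's processed signals the mean of the regulators and the heme enzyme was 0.20, 0.25, 0.23 and 0.26, a mean of 0.23, against a globin mean of 0.25. The differences from it were then 1.45 ± 0.11 for the embryonic and -0.94 ± 0.16 for the adult-type globins. Gata1 and Klf1 sat close to background, so their part of the mean of the regulators carries little information.

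Gata1, which encodes the zinc finger factor that red cell differentiation requires, was printed 10 times on each array (chrX:7116682-7116741). Its turned ratios, as the mean of its spots, were 0.05, 0.01, 0.04 and 0.05. Its spots were well above background mainly in Cy5, whichever RNA that channel held. That was 100% of spots in the Cdx4-low RNA on array 1 and 100% in the Cdx4-high RNA on array 3, against 20.0% and 0% in the other channel. The single spots ranged from -0.20 to 0.19 over the arrays. Klf1, which encodes an activator that binds the CACCC boxes of globin genes (chr8:87795087-87795146), had turned ratios of 0.00, 0.00, 0.08 and 0.02. With the scanner's processed signals Gata1 was at 0.33, 0.59, -0.03 and 0.16, a mean of 0.26, and Klf1 at 0.15, 0.05, 0.44 and 0.33, a mean of 0.24. Both probes were too dim to test, so no difference of either factor is given as a result.

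Epor (chr9:21709380-21709439) had turned ratios of 0.30, 0.30, 0.26 and 0.26 on arrays 1 to 4. All 4 were slightly positive and lay close together. The mean was log2 0.28 ± 0.09, which is 1.21-fold, and did not pass (adjusted p = 0.0984 in limma), though it passed in the exchange pairing (adjusted p = 7.58e-07). Alas2, whose enzyme starts heme synthesis in red cells (chrX:145911166-145911225), had ratios of -0.02, 0.01, 0.04 and -0.01. Its mean was 0.00 ± 0.09 (adjusted p = 0.994 in limma), and its level was 8.08 ± 0.01 in the Cdx4-low RNA and 8.07 ± 0.04 in the Cdx4-high RNA.

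No probe of the heme pathway passed. Of 11 tested probes for the 9 enzymes of heme synthesis, none passed in either direction, at a median of 0.04 against 0.01 over all tested probes. At an unadjusted p under 0.05, 2 of the 11 (18.2%) passed in limma, near the 17.4% of all tested probes. In the exchange pairing 3 of the 11 (27.3%) passed as higher after adjustment, beside 19.4% of all tested probes. They were those of Urod (0.25), Alad (0.23) and Uros (0.18), named after their values were seen. The other globin-fold genes that could be tested were Cygb, at log2 0.22 (adjusted p = 0.229), and Ngb, at -0.10 (adjusted p = 0.705 in limma), which are not red cell hemoglobins. Cygb passed with the scanner's processed signals, at 0.60 (adjusted p = 0.0212 in limma).

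Transcription factors of early blood moved the other way from the embryonic globins where they moved. Of 23 tested probes, none rose and 6 fell, 1 each for Etv2, Hhex, Gata2, Tal1, Lyl1 and Zfpm1, with a list median of -0.01. Of all tested probes 2.35% rose and 3.38% fell. Etv2, which starts the endothelial and blood programme in mesoderm, had turned ratios of -0.80, -0.74, -0.69 and -0.64 and fell by log2 0.72 (SE 0.09, adjusted p = 0.000118 in limma). Hhex, a homeobox gene of blood and endoderm precursors, had -0.46, -0.18, -0.91 and -0.71 and fell by 0.56 (adjusted p = 0.00403). The remaining 4 are named after their values were seen. Gata2, the GATA factor of progenitors, fell by 0.41 on 1 probe, and its other probe, at -0.32, did not pass (adjusted p = 0.0504 in limma). Tal1 and Lyl1, helix-loop-helix factors that form a complex with GATA factors, fell by 0.40 and 0.39, and Zfpm1, the GATA1 partner also called FOG1, fell by 0.37. A probe of Hhex at -0.11 and the probes of Lmo2 at 0.15 and of Runx1 at 0.00 did not pass. With the scanner's processed signals 4 probes of the list were called lower, those of Etv2, Hhex and both of Gata2, and none higher. The adjusted p-values of Tal1, Lyl1 and Zfpm1 were then 0.0556, 0.0596 and 0.0886 in limma. With median centring, where all tested probes had a median of 0.23, the 6 were at -0.29 to 0.09, Zfpm1 being the only one above 0.

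The further red cell lists held few calls, beside 2.35% of all tested probes higher and 3.38% lower. A single call in a list this short says little of the list. Genes given in this and the preceding paragraph that did not pass are likewise named after their values were seen. For the red cell membrane and skeleton, 1 of 9 tested probes rose, that of Cd24a, a surface glycoprotein also found on many embryonic cells, at log2 0.38 (adjusted p = 0.0197), and the list median was 0.12. Cd24a no longer passed with the scanner's processed signals (adjusted p = 0.0772 in limma). Slc4a1, the anion exchanger of red cells and a marker of them, was at 0.16 (adjusted p = 0.415 in limma), and passed with those signals, at 0.69 (adjusted p = 0.0127). For iron and heme transport, 1 of 24 fell, that of Hmox1, which breaks down heme, by 0.43 (adjusted p = 0.0137 in limma), at a median of -0.04. For erythropoietin and Kit signalling, 1 of 19 rose, that of Ptpn6, a phosphatase that dampens the receptor, at 0.37, and 1 fell, that of Cish, a feedback inhibitor induced through STAT5, by 0.44 (median 0.07). Another probe of Ptpn6 was at 0.04. The call of Ptpn6 ended with the scanner's processed signals (adjusted p = 0.0793 in limma) and with the spots in bright background set aside (adjusted p = 0.0549), and that of Cish did not. For red cell enzymes and the hemoglobin chaperone, 1 of 17 rose, that of Blvrb, a biliverdin reductase, at 0.35 (adjusted p = 0.0375 in limma), at a median of 0.05. The chaperone itself, Eraf, which binds free alpha globin, was at 0.23 and did not pass (adjusted p = 0.19 in limma). It passed as higher without background correction, at 0.36 (adjusted p = 0.0331), with the spots in bright background set aside, at 0.45 (adjusted p = 0.0146), and with the scanner's processed signals, at 1.56 (adjusted p = 0.00229 in limma).

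Over the 7 pathway lists together, 3 of 105 tested probes rose (2.86%) and 8 fell (7.62%), with a median of 0.02. The share that rose was near the 2.35% of all tested probes, and the share that fell was above their 3.38%, mostly through the 6 transcription factor probes. Without array 1 the lists held 1 call in place of 11, and without array 2 or without array 4 they held 6. Over all 21801 tested probes the calls fell too, from 1249 to 184 without array 1, 841 without array 2 and 966 without array 4. The lists were chosen with results of these data known, and no list was tested as a set.

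**Figure D4:**
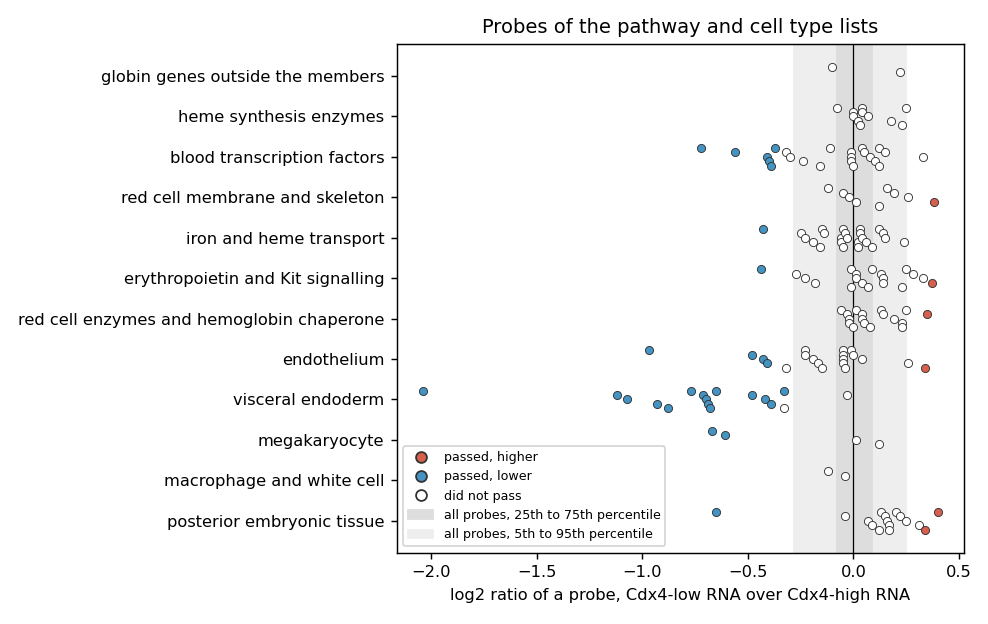
Turned log2 ratios of the tested probes of each list, with 1 point per probe. Filled red and blue points passed in both pairings, open points did not, and the grey bands give the 5th to 95th (-0.28 to 0.25) and 25th to 75th (-0.08 to 0.09) percentiles of all tested probes. Most red cell probes lie within the bands, and 15 of 17 visceral endoderm probes passed as lower.

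Markers of other cell types also differed between the RNAs, beside 2.35% of all tested probes higher and 3.38% lower in the Cdx4-low RNA. Visceral endoderm, the yolk sac layer next to the blood islands, had 15 of 17 tested probes lower and none higher, at a median of -0.69 (-0.39 with median centring), with at least 1 lower probe for each of its 14 genes. Its summed linear intensity was 50339 to 51347 in the Cdx4-low RNA and 102769 to 112617 in the Cdx4-high RNA over the 4 arrays. Afp, encoding alpha-fetoprotein, fell by 2.04 and Cubn, an endocytic receptor, by 1.12. This difference ran against the rise of the embryonic globins and with the fall of Hbb-b1, and its part in either was not tested.

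Of the endothelial markers, 4 of 20 probes fell and 1 rose, beside 3.38% and 2.35% of all tested probes, at a median of -0.10. The summed intensity of these markers was 12096 to 12622 in the Cdx4-low and 14058 to 15144 in the Cdx4-high RNA. Kdr, the VEGF receptor of endothelial and blood precursors, fell by 0.97 (turned ratios from -1.08 to -0.78), Sox7 fell by 0.48, and Cldn5, a tight junction gene, rose by 0.34. Of the megakaryocyte list 4 probes of 3 genes were tested. Both tested probes of Vwf, which endothelium also makes, fell by 0.67 and 0.61, whereas Gp1bb at 0.12 and Itga2b at 0.01 did not pass. Of the macrophage and white cell list only 2 probes were bright enough, Cd68 at -0.04 and Fcgr3 at -0.12, and neither passed. All 12 genes of the posterior tissue list were bright enough to test, which cannot tell whether other tissue was also taken. In that list Cdx1 rose by 0.40 and Wnt3a by 0.34, and Cyp26a1, which breaks down retinoic acid, fell by 0.65 (list median 0.17). With the spots in bright background set aside, and with the scanner's processed signals, Cldn5, Cdx1 and Wnt3a no longer passed.

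Red cells of the mother carry the adult-type chains and could enter a dissection with decidua. Prl8a2, a prolactin family gene of the decidua singled out after its value was seen, had turned ratios of -1.42, -1.03, -1.75 and -1.42 and was lower in the Cdx4-low RNA, at log2 -1.41 ± 0.10 (adjusted p = 1.4e-07 in limma). It ran in the direction of Hbb-b1. Its part in the Hbb-b1 values was not tested.

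The array values nearest to those of Hbb-bh1, by Euclidean distance over the 4 turned ratios, were those of Emid2 (now Col26a1, a collagen gene), Defcr-rs7, 3100002J23Rik, Defcr20 and Defcr3. Their distances were 0.34 to 0.45 and their mean ratios 1.14 to 1.21. The 3 Defcr genes encode defensins and are near-identical paralogs. This is a likeness over 4 arrays and says nothing of function. Neither Hba-x nor Hbb-y was eligible for this rank, being members.

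Processing moved the size of the called globin ratios more than the sign of their means. Without background correction, with the scanner's signals or with the spots in bright background set aside, all 8 called probes kept their call and direction. The authors' series table holds the ratios of the scanner's signals and gave the same calls, so it is not a further check. Without background correction Hba-a1 probe 1 joined the 8 called probes, which made 5 called lower. With median centring in place of loess none was called. The second Hbb-bh1 probe then had 1.56, 3.09, 0.72 and 1.69. The median of all tested probes was then at 0.23. The 8 called probes kept their sign in the mean there, with Hbb-b1 at -0.33 to -0.49, and Hba-a1 was also below that median. On array 2, however, the Hbb-b1 probes were positive with median centring, at 0.49 to 0.77, and the Hba-a1 probes were at 1.07 and 1.25. With no filter on dim probes none of the 8 passed, with adjusted p-values of 0.0726 to 0.19 in limma, which then called 16 of all 41174 probes. With the signs of the labels the ratios cancelled, at 0.00 for both Hbb-bh1 probes, -0.05 for Hbb-y and -0.02 for Hba-x.

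**Figure D5:**
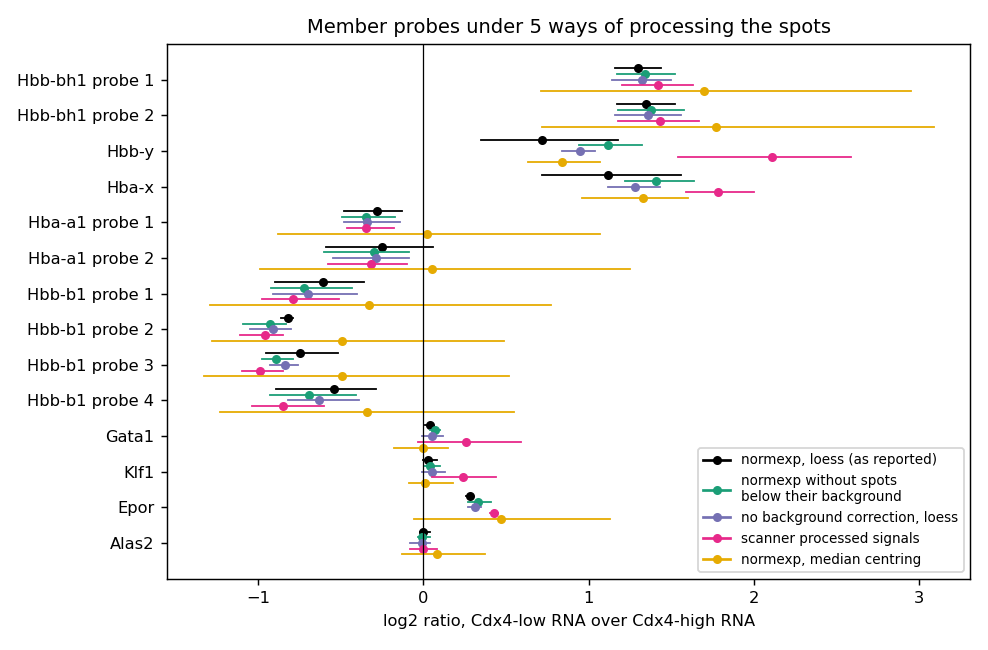
Mean turned log2 ratio (point) and range over the 4 arrays (line) of each member probe under 5 ways of processing the spots. Hbb-bh1 changes little among the settings that use loess or the scanner's signals, Hbb-y runs from 0.72 to 2.11, and median centring gives the widest ranges.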

How the data were processed

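The submitters' processing notes name Agilent Feature Extraction 9.5.3. The deposited scanner files give, per the file headers, spot intensities (mean signal, local background and processed signal of Cy3 and Cy5) and a log10 ratio of Cy5 over Cy3. The authors' series table holds the same log10 ratios, equal within 1e-05 on arrays 1 and 3 and with the sign turned on the dye swaps. Its direction is thus that of the labels, and no further centring was found (median 0 on each array).

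Computations used R 4.3.3 and limma 3.58.1. Mean signals were background-corrected (normexp, offset 50) and loess-normalised per array, control spots having weight 0. Outlier spots (103 to 167 per array) were left out, saturated spots (0 to 7 per channel, none of a member) were kept, and spots of a probe were averaged. Tested probes were those the scanner called well above background, for 1 RNA or the other, on every one of the 4 arrays. Averages of a pair of arrays were fitted with lmFit and eBayes, with 1 residual and 17.2 prior degrees of freedom per probe, so the error is largely pooled over probes. In the exchange pairing the prior was infinite and nearly all probes share a standard error of 0.052. The test was tried on simulated data first. Alternatives covered the pairing, orientation, background, normalisation, filter, probe choice and each array left out.

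The members, lists and tests were chosen with earlier results of these data known. Named are every member probe, the 2 largest increases and decreases of each list among probes called in both pairings, whole lists where 5 or fewer were measured, Cdx2 and Cdx4, and the 5 probes nearest to Hbb-bh1. Positions are mm8, from the scanner files. The number of arrays limits the precision of every value.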

Additional observations from a re-analysis of the deposited data

How the results depend on the processing

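All 8 member calls (4 higher and 4 lower) kept call and direction with only the 2 arrays whose labels put lower Cdx4 in the mutant. The same held under 4 other handlings of background or signal, 2 of which (the scanner's signals and the authors' series table) hold the same ratios. All 8 were also called in the exchange pairing, in the third pairing (array 1 with 4, 2 with 3) and with a dye term. Those fits average the same 4 turned ratios, so the direction could not change. Their median standard errors were 0.052, 0.036 and 0.04 against 0.095, so a kept call there says little. With the orientation as labelled, with median centring or with no filter on dim probes the counts were 0 called, 0 higher and 0 lower. Without the filter 16 of all 41174 probes were called and limma set 3.44 prior degrees of freedom in place of 17.2. With median centring no probe of the array was called. Why these settings lost the calls was not tested. With the brightest probe of each gene 4 were called, 1 of them lower, because 4 called probes were then not in the fit. Leaving out arrays gave 5 to 8 calls, 3 to 4 higher and 2 to 4 lower, with the fewest without array 1. Over all 21801 tested probes there were then 184 calls without array 1 and 735 to 966 without another array, in place of 1249.

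The pathway lists held 11 calls, against 53 in the exchange pairing, 59 in the third and 57 with a dye term, where the error is smaller. Of all 21801 tested probes 1249 were called, against 8178, 11018 and 9200 in those fits. The lists held 6 with only the 2 arrays just named (702 over all tested probes) and 0 as labelled (21). They held 0 with median centring and 0 without the filter. Leaving out arrays gave 1 to 9, with 1 without array 1 (184 over all tested probes), 6 without array 2 (841) and 6 without array 4 (966).

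The embryonic minus adult-type difference of 1.66 was -0.03 as labelled, where the signs cancel, 2.4 with the scanner's signals or the authors' series table, and 1.96 with the spots in bright background set aside, an alternative chosen after seeing the data. Without 1 replicate it ran from 1.46 to 1.86. The globin minus regulator difference of 0.04 was 0.26 with median centring, and -0.05 without replicate 1 to 0.12 without replicate 2. As labelled, 7 called probes reversed, to 0.00 for both Hbb-bh1 probes, -0.05 for Hbb-y, -0.02 for Hba-x and 0.02, 0.01 and 0.05 for Hbb-b1 probes 1, 2 and 4. Of the other single-probe values, 174 kept their side of the threshold or, with no test, moved by less than 1 SD of the arrays, 20 lost and 10 gained a call.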
